A study of Mus musculus with 12 samples.

Results

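The genes described here make and handle cholesterol in the mouse liver. They were chosen by symbol, as 29 genes of the mevalonate and sterol synthesis pathway, its control by SREBP2, sterol uptake and transport, and acetoacetate use, out of 55421 genes counted. Each symbol had 1 row, and 29 of 29 passed the low-count filter that left 15006 genes for testing. Total RNA, depleted of ribosomal RNA, was sequenced from livers of wild-type mice bearing a tumour of E0771, a cell line from a mouse mammary carcinoma, in the mammary fat pad. Libraries 1 to 4 came from mice kept at 6 °C, libraries 5 to 8 from mice kept at 22 °C and libraries 9 to 12 from mice kept at 29 °C, with 1 week to acclimatise, and the labelled time is day 21. Every group carried the tumour, and livers of tumour-free mice were not analysed here. The labels name both Balb/C and C57Bl6/J mice and tie neither strain to a library, and they give no age. Whether the libraries are different animals is not stated either, and the p-values therefore refer to differences among libraries, which could be partly technical.

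Cholesterol is built from acetyl-CoA through mevalonate, isoprenoid diphosphates, squalene and lanosterol, and the liver is a main site of this synthesis. The transcription factor SREBP2 raises the whole set of enzymes when sterols are scarce. It is carried out of the endoplasmic reticulum by SCAP, and the INSIG proteins hold SCAP back when sterols are plentiful. Cells also gain cholesterol by receptor uptake, release it from lysosomes through NPC1 and NPC2, and store it as esters made by SOAT2 in hepatocytes.

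Upstream sequence is shown for the genes the results turn on. Aacs was the gene that passed the test across all 3 temperatures, and Hmgcs1 held the sterol element searched for. Ebp and Sc5d passed for 29 °C against 6 °C in a further fit described below and kept that call without any 1 library. Insig1 and Insig2 are a sensor pair with unlike values. RefSeq promoter windows of GRCm38.p6 (250 bases before a start to 50 after it) were at hand for 23 of the 29 genes, which gave 29 windows; Fdps, Fdft1, Sqle, Npc1, Stard4 and Soat2 had none. The letters TCACNCCAC, the core of the sterol regulatory element bound by SREBP, were searched on both strands, and were found in the windows of 1 gene, Hmgcs1, as TCACCCCAC. They occur in 1.24% of all 32851 windows. The letters CCAAT, the box bound by NF-Y, the usual partner of SREBP, were found on either strand in 20 of 29 windows of the members (69%), against 37.4% of all windows, and these lay in 20 of the 23 genes. The highest number of CCAAT matches in a window was 5, in Mvk, and Acat2, Scap and Aacs had none. The 2 motifs did not overlap in Hmgcs1. A match is a description of letters and not of a bound site. Each line below runs 5′ to 3′ towards the start and is limited to bases outside annotated exons, with CCAAT (or ATTGG, its reverse strand form) and the sterol element in capitals.
Aacs, chr5:125475623-125475813, plus strand: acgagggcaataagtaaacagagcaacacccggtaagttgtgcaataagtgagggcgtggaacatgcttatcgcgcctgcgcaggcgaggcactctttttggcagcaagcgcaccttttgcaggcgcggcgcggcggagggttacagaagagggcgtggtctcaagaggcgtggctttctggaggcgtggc
Hmgcs1, chr13:119690101-119690350, plus strand: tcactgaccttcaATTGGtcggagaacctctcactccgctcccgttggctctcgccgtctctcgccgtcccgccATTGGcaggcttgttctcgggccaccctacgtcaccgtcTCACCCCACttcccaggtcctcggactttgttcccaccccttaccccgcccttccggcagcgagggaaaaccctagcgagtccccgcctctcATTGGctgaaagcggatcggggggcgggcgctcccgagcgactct
Ebp, chrX:8193513-8193762, minus strand: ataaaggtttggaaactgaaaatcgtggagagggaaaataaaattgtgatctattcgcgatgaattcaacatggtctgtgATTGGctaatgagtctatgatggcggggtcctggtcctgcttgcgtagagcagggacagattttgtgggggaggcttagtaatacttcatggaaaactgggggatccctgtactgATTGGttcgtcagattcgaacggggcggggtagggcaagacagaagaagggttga
Sc5d, chr9:42264301-42264550, minus strand: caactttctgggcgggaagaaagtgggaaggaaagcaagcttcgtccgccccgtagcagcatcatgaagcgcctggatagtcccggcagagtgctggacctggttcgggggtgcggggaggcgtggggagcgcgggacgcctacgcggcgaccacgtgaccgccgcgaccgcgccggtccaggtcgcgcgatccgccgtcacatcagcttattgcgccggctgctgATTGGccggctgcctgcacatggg
Insig1, chr5:28071162-28071362, plus strand: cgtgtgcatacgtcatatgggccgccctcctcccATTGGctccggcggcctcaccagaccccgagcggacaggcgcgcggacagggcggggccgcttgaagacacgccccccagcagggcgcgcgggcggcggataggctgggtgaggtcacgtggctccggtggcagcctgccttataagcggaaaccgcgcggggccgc
Insig2, first of 3 starts, chr1:121332590-121332839, minus strand: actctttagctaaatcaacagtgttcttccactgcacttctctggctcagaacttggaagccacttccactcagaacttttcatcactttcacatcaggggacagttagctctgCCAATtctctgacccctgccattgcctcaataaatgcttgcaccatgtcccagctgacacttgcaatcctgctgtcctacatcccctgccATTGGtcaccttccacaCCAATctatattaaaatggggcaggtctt

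The libraries differed in ways that the temperatures do not account for. Total counts were between 7615585 and 19001126, so that 3 counts, the limit that a count of 0 allows, equal 0.158 to 0.394 CPM. CPM is the usual depth-scaled count unit. It is scaled by total counts alone for this limit and for H2-Ea-ps, and TMM-scaled elsewhere. The lowest member, Idi1, had 21 counts or more in each library. Libraries 1, 7, 8 and 9 held 11.8 to 17.1 CPM of the class II pseudogene H2-Ea-ps and the other 8 held 0 counts. Libraries 3, 5 and 6 gave 1.66%, 0.667% and 0.605% of their counts to the non-coding RNA Gm26917, and the other 9 gave 4.03% to 8.70%. Of 8 hepatocyte markers 8 were measured, and their summed level was 96877 to 141647 CPM at 6 °C, 91398 to 201157 CPM at 22 °C and 83338 to 170283 CPM at 29 °C. Of 8 neutrophil markers 8 were measured, at 24.8 to 814 CPM at 6 °C, 338.5 to 1594 CPM at 22 °C and 507 to 2494 CPM at 29 °C, and the 4 libraries with H2-Ea-ps counts had the 4 highest sums. Of 6 mammary epithelial markers, Krt5, Elf5 and Csn2 were at 0 in all 12 libraries, Krt14 was at or below 0.0569 CPM, and Krt8 and Krt18 were present. For 29 °C against 6 °C the log2 fold change was positive for 8 of 8 neutrophil markers (median 1.38) and 9 of 9 Kupffer cell markers (median 0.62), and none of either passed in edgeR (0 and 2 at an unadjusted p under 0.05). Their part in the differences between temperatures was not tested. In such bulk samples, fewer cells of a type and less RNA per cell cannot be told apart. Results are therefore also given from a fit with a term for the 4 libraries with H2-Ea-ps counts, called the split term, and from the 8 libraries without such counts.

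Most of the 29 genes had higher levels at 6 °C than at 22 °C and than at 29 °C, but with all 12 libraries only Aacs passed any of the 5 tests run in edgeR. In edgeR's quasi-likelihood F test of the 3 temperatures, 1 of 29 members passed an adjusted p of 0.05 (3.45% of members, against 0.666% of all genes tested). For 29 °C against 6 °C no member passed (2.53% of all genes did), and 23 of 29 had a negative log2 fold change, with a median of -0.40 against 0.00 over all genes. For 6 °C against 22 °C no member passed (0.0333% of all genes did), and 25 of 29 had a positive log2 fold change, with a median of 0.51 against -0.02 over all genes. For 29 °C against 22 °C no member passed (0% of all genes did), and the members' median was 0.07 against 0.00 over all genes. A linear slope over temperature gave no member either (1.4% of all genes). The 3 pairwise comparisons share their groups of libraries and are not independent of one another. The 29 genes are not independent either, since many of them varied together among the libraries, as described below. Within a group, the members' median log2(CPM + 1) had an SD of 0.32 over libraries. The counts and medians of members were not tested. At an unadjusted p under 0.05, the members passing were 11 in the F test (37.9%, against 19.6% of all genes), 8 for 29 °C against 6 °C (27.6%, against 19.4%) and 2 for 29 °C against 22 °C (6.9%, against 14.9%). They were 14 for 6 °C against 22 °C (48.3%, against 11.9%) and 11 for the slope (37.9%, against 17.9%). Where edgeR called no member, DESeq2 called 0 for 29 °C against 6 °C, 1 for 29 °C against 22 °C, 3 for 6 °C against 22 °C and 0 for the slope. limma voom called 0, 1, 0 and 1 in the same order. The shares of all genes called by these 2 tools are not given here, so their counts are not set against a general rate.

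**Figure D1:**
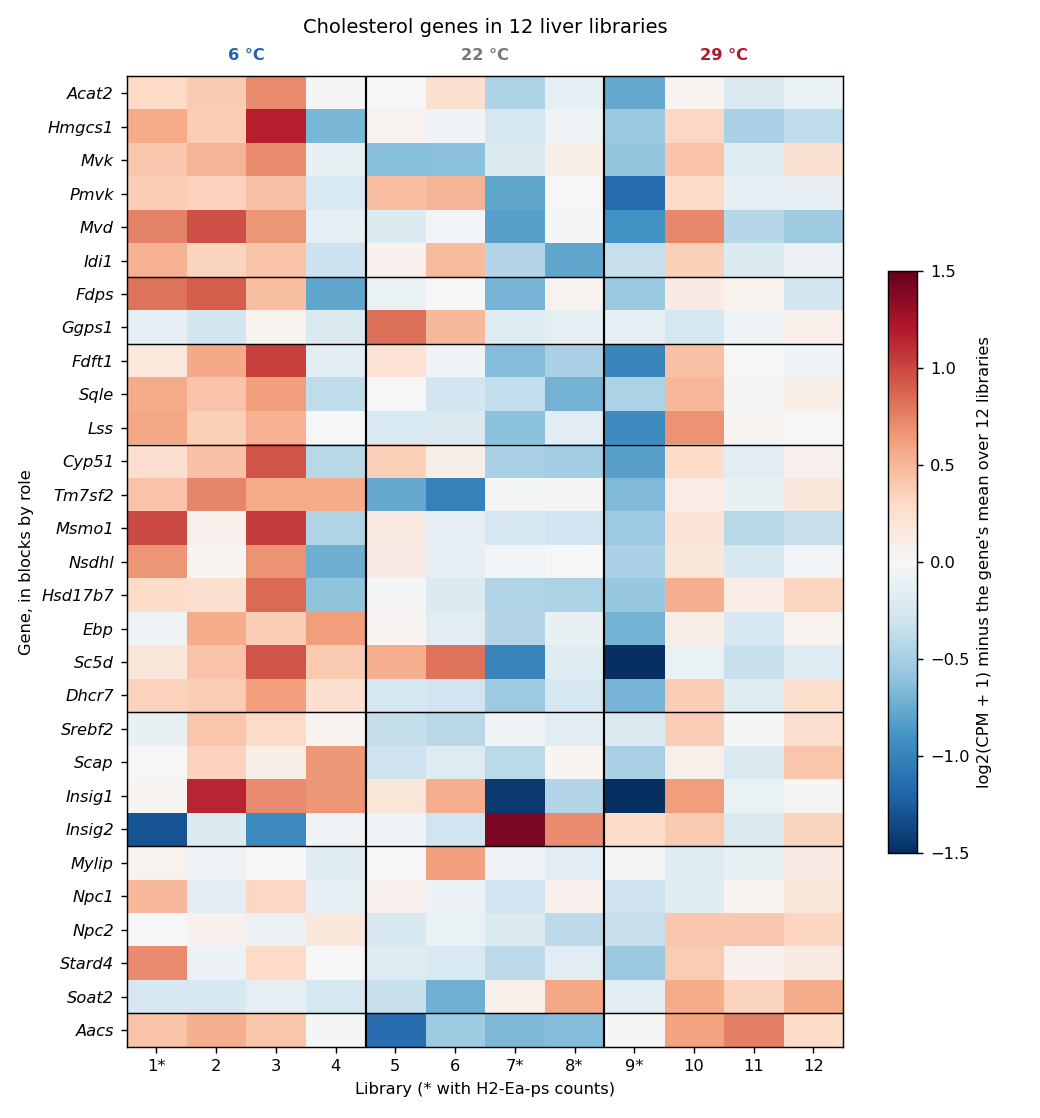
Heat map of the 29 genes (down the page, in blocks by role) in the 12 libraries (across, by housing temperature), as log2(CPM + 1) minus each gene's mean over the 12 libraries. Red cells are above the gene's mean and blue cells below, with values beyond the ends of the colour scale drawn at its end colours. Library 9 was the lowest of its 4 libraries for 26 of 29 genes, a count not made over all genes tested. Insig1 and Insig2 show the widest range of colours.

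With the split term, 6 members passed the F test (20.7%, against 11.2% of all genes): Acat2, Tm7sf2, Ebp, Sc5d, Dhcr7 and Aacs. The F test call of Acat2 was lost without library 1, 3, 5, 6, 9, 10, 11 or 12 (adjusted p up to 0.118, edgeR) and that of Ebp without library 2, 4, 5 or 11 (up to 0.0743). For 29 °C against 6 °C 4 members passed and were lower at 29 °C, namely Acat2, Ebp, Sc5d and Insig1 (13.8%, against 12.6% of all genes), a share close to that of all genes. For 29 °C against 22 °C 2 members passed (6.9%, against 3.44%), for 6 °C against 22 °C 1 member passed (3.45%, against 0.367%), and for the slope 3 passed (10.3%, against 7.38%). In the 8 libraries without H2-Ea-ps counts the members passing were 10 in the F test (34.5%, against 21.6% of all genes) and 4 for 29 °C against 6 °C (13.8%, against 9.91%). There were 8 for 29 °C against 22 °C (27.6%, against 17.1%) and 7 for 6 °C against 22 °C (24.1%, against 6.69%). In that fit the 22 °C group holds libraries 5 and 6 alone, both of which are also low in Gm26917.

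Groups without overlap were most frequent for 6 °C against 22 °C. At 29 °C, Tm7sf2 and Sc5d lay below every 6 °C library (6.9% of members, against 6.74% of all genes), and no member lay wholly above (0%, against 6.56%). Aacs was higher in every 29 °C library than in every 22 °C library (3.45% of members, against 3.89%). At 6 °C, 6 members lay above every 22 °C library (20.7%, against 3.53% of all genes), namely Lss, Tm7sf2, Dhcr7, Npc2, Stard4 and Aacs.

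Aacs (chr5:125475814-125517410 in GRCm38, plus strand) encodes acetoacetyl-CoA synthetase, a cytosolic enzyme that returns the ketone body acetoacetate to lipid and sterol synthesis. Its level was 90.1, 96.6, 88.8 and 65.3 CPM in libraries 1 to 4 (6 °C), 29.7, 45.6, 41.4 and 41.9 CPM in libraries 5 to 8 (22 °C), and 67.5, 101, 113 and 81.0 CPM in libraries 9 to 12 (29 °C). All 4 libraries at 22 °C were below all 8 libraries at the other temperatures, and the groups at 6 °C and 29 °C overlapped. Aacs changed with temperature in the F test (adjusted p = 0.0231, edgeR). The log2 fold change was 1.19 ± 0.19 (SE) for 29 °C against 22 °C, a 2.29-fold difference (adjusted p = 0.0621, edgeR). It was 1.10 ± 0.19 for 6 °C against 22 °C, a 2.15-fold difference (adjusted p = 0.0980), and 0.09 ± 0.19 for 29 °C against 6 °C (adjusted p = 0.839). With the split term both pairs passed, at 1.17 ± 0.19 for 29 °C against 22 °C (adjusted p = 0.0182) and 1.09 ± 0.19 for 6 °C against 22 °C (adjusted p = 0.0258). Those 2 calls were lost without library 5, 6 or 10 (adjusted p up to 0.111, edgeR) and without library 1, 5 or 6 (up to 0.120). Without any 1 of libraries 3, 5, 8, 10 and 12 the adjusted p of the F test was 0.0518 to 0.0821, and without libraries 3, 5 and 6 together it was 0.137. Of the 4 libraries at 22 °C, 2 held H2-Ea-ps counts and 2 did not, and both kinds were low in Aacs.

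**Figure D2:**
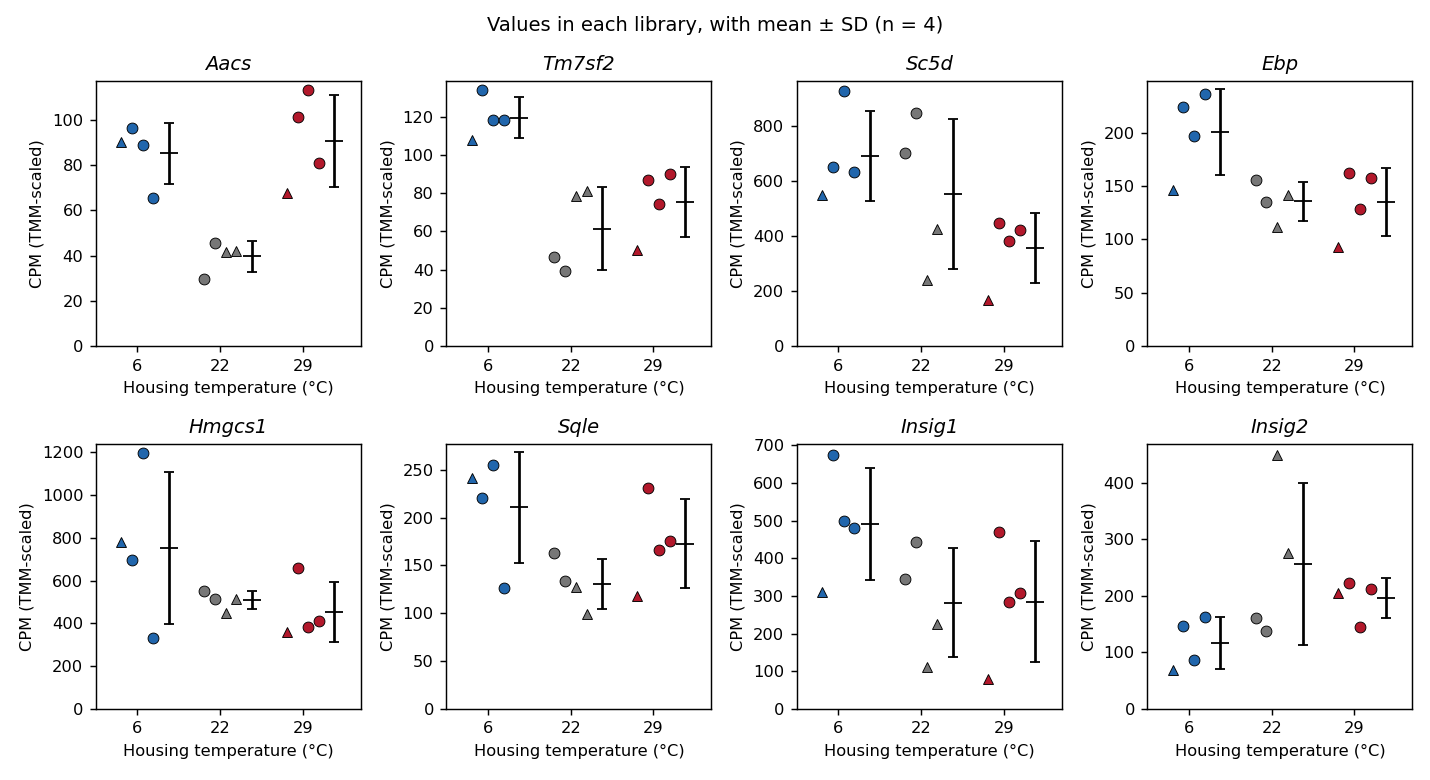
Level in CPM (vertical axis, from 0) of 8 genes in each of the 12 libraries by housing temperature in °C; triangles are libraries with H2-Ea-ps counts, circles the others, and the bar beside each group is the mean ± SD (n = 4). Aacs at 22 °C sits between 29.7 and 45.6 CPM, below every other library, while Insig1 and Insig2 spread widely within 22 °C.

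The mevalonate pathway is the first stretch of synthesis, and 6 of its 6 members had a negative log2 fold change for 29 °C against 6 °C, with a median of -0.54. None passed with all 12 libraries. Hmgcs1, the cytosolic HMG-CoA synthase (chr13:119690379-119708260, plus strand), had 783, 698, 1197 and 332 CPM at 6 °C, 553, 516, 449 and 515 CPM at 22 °C, and 361, 661, 382 and 409 CPM at 29 °C. Library 3 was far above the rest and library 4 was the lowest of all 12, both at 6 °C, so the groups overlapped. For Hmgcs1 the log2 fold change was -0.73 ± 0.31 (SE) for 29 °C against 6 °C, -0.17 ± 0.31 for 29 °C against 22 °C and 0.57 ± 0.31 for 6 °C against 22 °C (adjusted p = 0.215, 0.841 and 0.483, edgeR). Acat2, the thiolase that joins acetyl-CoA units, had 44.0, 46.8, 58.6 and 36.0 CPM at 6 °C, 35.8, 42.3, 25.4 and 31.9 CPM at 22 °C, and 20.4, 36.4, 30.3 and 33.2 CPM at 29 °C. Its log2 fold change for 29 °C against 6 °C was -0.62 ± 0.21 (adjusted p = 0.119) and became -0.65 ± 0.16 with the split term, where it passed (adjusted p = 0.0171). That call was lost without library 1, 3 or 9 (adjusted p up to 0.0647, edgeR). The mouse also has Acat3, a close paralogue next to Acat2, and reads may be shared between them. Idi1, the isomerase that makes the reactive isoprenoid unit, was the lowest member, at 5.33, 4.52, 4.93 and 2.51 CPM at 6 °C, 3.60, 5.09, 2.23 and 1.57 CPM at 22 °C, and 2.47, 4.61, 2.82 and 3.12 CPM at 29 °C. Its groups overlapped in each comparison. Mvk, Pmvk and Mvd, the 2 kinases and the decarboxylase of mevalonate, had log2 fold changes of -0.40 ± 0.25, -0.46 ± 0.32 and -0.78 ± 0.35 for 29 °C against 6 °C. For 6 °C against 22 °C the values were 0.75 ± 0.25 for Mvk, 0.13 ± 0.32 for Pmvk and 0.88 ± 0.35 for Mvd (adjusted p = 0.294, 0.916 and 0.354).

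The branch point to other isoprenoids holds 2 members. Fdps, the farnesyl diphosphate synthase, averaged 24.7 ± 10.8 CPM at 6 °C, 15.5 ± 3.54 CPM at 22 °C and 15.7 ± 3.47 CPM at 29 °C (SD, n = 4 each), with overlapping groups. Ggps1, which makes the geranylgeranyl unit for protein prenylation, was the enzyme whose mean was highest at 22 °C, at 12.7 ± 4.72 CPM, with 9.03 ± 1.04 CPM at 6 °C and 9.39 ± 1.02 CPM at 29 °C. The 22 °C mean rested on libraries 5 and 6 at 18.5 and 14.5 CPM, beside 8.75 and 8.96 CPM in libraries 7 and 8. In the 8 libraries without H2-Ea-ps counts Ggps1 was lower at 29 °C and at 6 °C than in those 2 libraries, by log2 fold changes of -0.80 (adjusted p = 0.0242, edgeR) and -0.87 (adjusted p = 0.0357). Exons of Ggps1 overlap those of Arid4b on the opposite strand, which averaged 43.8 CPM against 10.4 CPM for Ggps1. Whether counting used strand is not given, so reads of Arid4b may be part of the Ggps1 counts. Gm43738 overlaps Fdps on the same strand and was at 0 CPM.

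From squalene to lanosterol, the 3 members were each lowest in mean at 22 °C. Sqle, the squalene epoxidase and a control point of the pathway, had 241, 221, 254 and 126 CPM at 6 °C, 163, 134, 127 and 99.5 CPM at 22 °C, and 118, 231, 167 and 175 CPM at 29 °C. Libraries 1, 2 and 3 were above every 22 °C library and library 4 was not. In Sqle the log2 fold change was 0.69 ± 0.24 (SE) for 6 °C against 22 °C, 0.40 ± 0.24 for 29 °C against 22 °C and -0.29 ± 0.24 for 29 °C against 6 °C (adjusted p = 0.309, 0.457 and 0.560, edgeR). Fdft1, the squalene synthase, averaged 105 ± 38.5 CPM at 6 °C, 65.7 ± 18.4 CPM at 22 °C and 72.1 ± 26.7 CPM at 29 °C. Its exons overlap those of Ctsb on the opposite strand, which was at 744 CPM, and whether counting used strand is not given in the sources used here. Lss, the lanosterol synthase, had 106 to 159 CPM at 6 °C and 69.3 to 95.5 CPM at 22 °C, which do not overlap (log2 fold change 0.68 ± 0.26, adjusted p = 0.338).

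The steps from lanosterol to cholesterol held 8 members. All 8 had a negative log2 fold change for 29 °C against 6 °C, with a median of -0.53, and a positive one for 6 °C against 22 °C, with a median of 0.56. None passed with all 12 libraries. Tm7sf2, a sterol reductase, had 108, 134, 118 and 118 CPM at 6 °C, 46.6, 39.1, 78.7 and 81.1 CPM at 22 °C, and 50.2, 86.8, 74.2 and 90.1 CPM at 29 °C. Every 6 °C library was above every other library. Its log2 fold change was 0.96 ± 0.24 (SE) for 6 °C against 22 °C and -0.66 ± 0.24 for 29 °C against 6 °C (adjusted p = 0.204 and 0.143, edgeR), and its F test passed with the split term (adjusted p = 0.0385, against 0.102 without it). This call was lost on leaving out any 1 of 8 libraries (1 to 6, 10 and 11), with an adjusted p up to 0.101. In the 8 libraries without H2-Ea-ps counts Tm7sf2 passed the F test (adjusted p = 0.000404, edgeR). Its log2 fold change there was 1.52 for 6 °C against 22 °C (adjusted p = 0.00203). For 29 °C it was 0.96 against 22 °C (adjusted p = 0.00221) and -0.55 against 6 °C (adjusted p = 0.0193). The 22 °C group of that fit holds libraries 5 and 6 alone, where Tm7sf2 was lowest, at 46.6 and 39.1 CPM. Vps51 overlaps Tm7sf2 on the same strand and was at 18.1 CPM.

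Sc5d, the lathosterol oxidase, had 549, 650.4, 925 and 634 CPM at 6 °C, 702, 847, 241 and 426 CPM at 22 °C, and 168, 449, 381 and 423 CPM at 29 °C. All 29 °C libraries were below all 6 °C libraries, while the 22 °C libraries covered nearly the whole range. The log2 fold change for 29 °C against 6 °C was -0.96 ± 0.37 (adjusted p = 0.180), and with the split term Sc5d fell by 1.06 ± 0.21 on the log2 scale (adjusted p = 0.00547). For 29 °C against 22 °C it was -0.64 ± 0.37 (adjusted p = 0.435) and, with the split term, -0.86 ± 0.21 (adjusted p = 0.0430). The call against 6 °C held without any 1 library (adjusted p up to 0.0222, edgeR), and the call against 22 °C was lost without library 3, 5, 6, 8, 9, 10, 11 or 12 (up to 0.187). Ebp, the sterol isomerase, had 146, 224, 197 and 236 CPM at 6 °C, 156, 135, 112 and 141 CPM at 22 °C, and 92.6, 162, 128 and 157 CPM at 29 °C. Library 1 was the lowest 6 °C library for Ebp, and the other 3 were above every library at 22 °C and 29 °C. Its log2 fold change for 29 °C against 6 °C was -0.57 ± 0.20 (adjusted p = 0.137) and, with the split term, -0.58 ± 0.14 (adjusted p = 0.0147), and this call held without any 1 library (up to 0.0494). Dhcr7, a reductase of the last step, had 177, 181, 214 and 166 CPM at 6 °C, 116, 113, 95.0 and 117 CPM at 22 °C, and 85.3, 180.4, 123 and 167 CPM at 29 °C. The 6 °C and 22 °C libraries did not overlap, and the 29 °C libraries reached into both ranges. Dhcr7 had a log2 fold change of 0.74 ± 0.20 for 6 °C against 22 °C (adjusted p = 0.249). Its F test passed with the split term (adjusted p = 0.0440, edgeR), which was lost without library 1, 2, 3, 5, 6, 7, 11 or 12 (up to 0.161).

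The other 4 genes of this stretch passed no test with all 12 libraries, with or without the split term. Cyp51, the lanosterol demethylase, averaged 296 ± 110.0 CPM at 6 °C, 213 ± 64.4 CPM at 22 °C and 210.5 ± 62.7 CPM at 29 °C (SD, n = 4 each). Msmo1, which starts removal of the methyl groups, averaged 221 ± 102 CPM at 6 °C, 139 ± 19.2 CPM at 22 °C and 128 ± 32.0 CPM at 29 °C. Its 6 °C values fell into 301 and 314 CPM in libraries 1 and 3 and 159 and 110.2 CPM in libraries 2 and 4. Nsdhl and Hsd17b7, which follow Msmo1 in demethylation, had log2 fold changes of 0.28 ± 0.25 and 0.56 ± 0.28 for 6 °C against 22 °C. Leaving out 1 library took these to as low as 0.11 and 0.30, both without library 3, and with the split term to 0.0044 and 0.28, both without library 1.

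**Figure D3:**
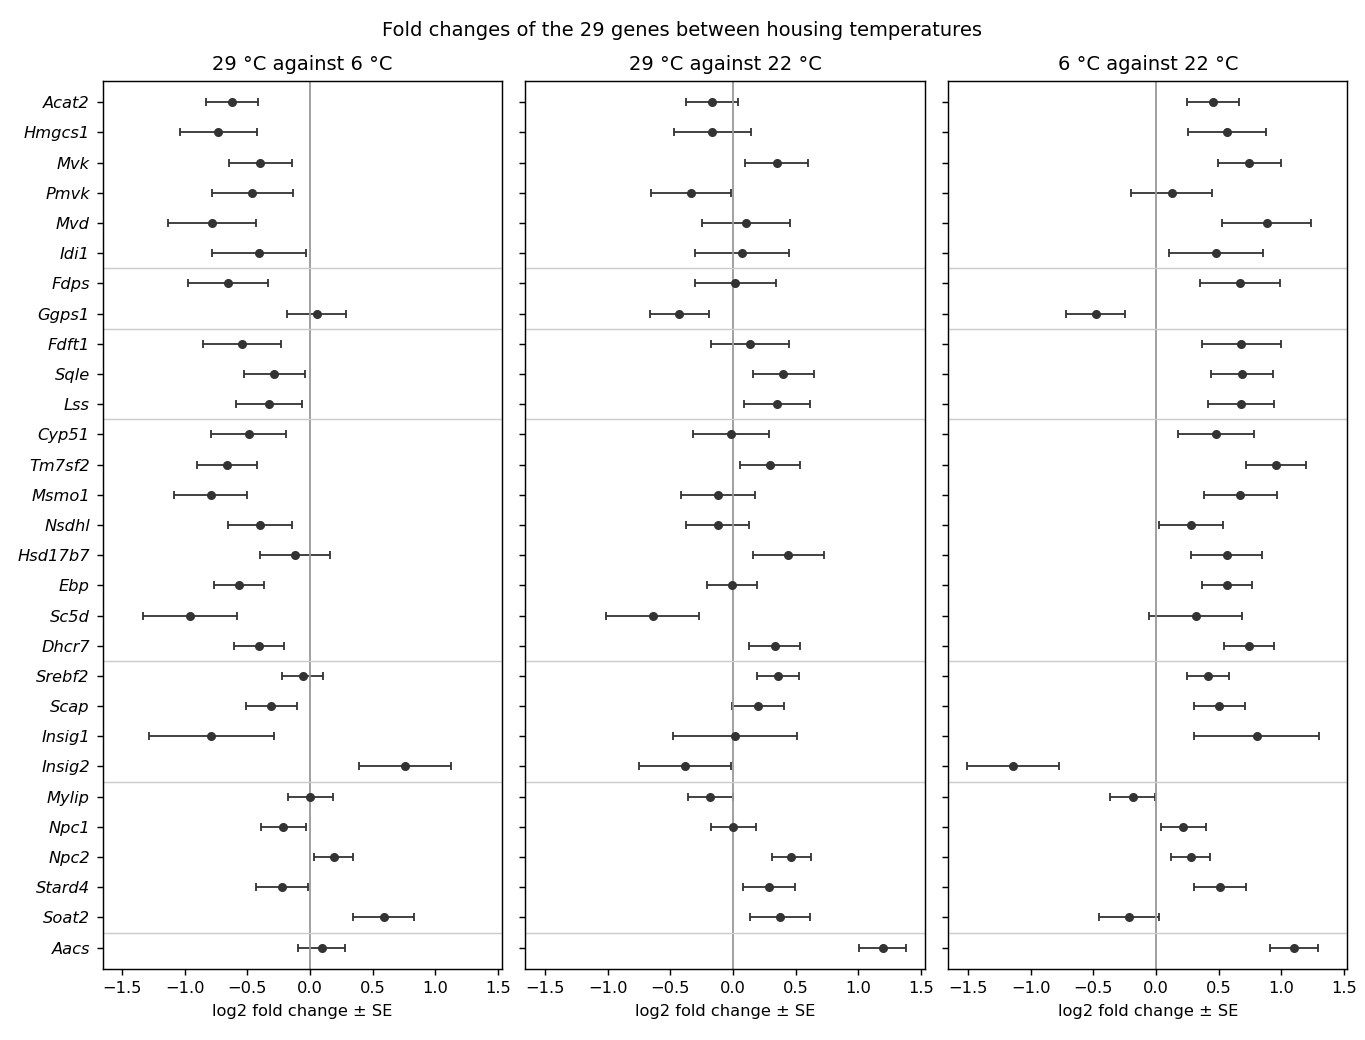
Log2 fold change ± SE (horizontal axis) of each of the 29 genes from edgeR's quasi-likelihood fit of the 12 libraries, for 29 °C against 6 °C, 29 °C against 22 °C and 6 °C against 22 °C. For 29 °C against 6 °C 23 of 29 points lie left of 0 and for 6 °C against 22 °C 25 of 29 lie right of it, with Insig2 on the other side in both and Aacs farthest right in the last 2 panels.

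Among the control genes, Srebf2 varied least and the INSIG genes most. Srebf2, which encodes SREBP2, had 132, 191, 175 and 147 CPM at 6 °C, 112, 107, 137 and 128 CPM at 22 °C, and 123, 185, 140.4 and 171 CPM at 29 °C. Its highest library was 1.78 times its lowest, and the groups overlapped. The log2 fold change was -0.06 ± 0.17 (SE) for 29 °C against 6 °C, 0.36 ± 0.17 for 29 °C against 22 °C and 0.42 ± 0.17 for 6 °C against 22 °C (adjusted p = 0.890, 0.339 and 0.354, edgeR). In the 8 libraries without H2-Ea-ps counts Srebf2 passed the F test (adjusted p = 0.0275, edgeR). Its log2 fold change there was 0.59 for 29 °C against 22 °C (adjusted p = 0.0245) and 0.64 for 6 °C against 22 °C (adjusted p = 0.0358). The 22 °C group of that fit holds libraries 5 and 6 alone, where Srebf2 was lowest, at 112 and 107 CPM. Scap averaged 223 ± 46.7 CPM at 6 °C, 157 ± 21.4 CPM at 22 °C and 180.2 ± 49.3 CPM at 29 °C (SD, n = 4 each).

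Insig1, itself a target of SREBP2 (chr5:28071363-28078662, plus strand), had 312, 675, 499 and 481 CPM at 6 °C, 346, 444, 111 and 225 CPM at 22 °C, and 78.3, 469, 283 and 308 CPM at 29 °C. It had the widest range of the 29 genes, 8.61-fold, and the lowest library of each temperature was one with H2-Ea-ps counts. The log2 fold change for 29 °C against 6 °C was -0.79 ± 0.50 (adjusted p = 0.416, edgeR), and with the split term Insig1 passed at -0.96 ± 0.28 (adjusted p = 0.0424). That call was lost without library 1, 2, 3, 5, 6, 9, 11 or 12 (adjusted p up to 0.123, edgeR). Insig2 (chr1:121304353-121332589, minus strand), which in the mouse has a liver transcript that insulin represses, had 68.1, 146, 86.6 and 163 CPM at 6 °C, 160.0, 137, 449.8 and 276 CPM at 22 °C, and 204, 222, 145 and 213 CPM at 29 °C. The highest libraries were 7 and 8, where Insig1 was low, and the lowest was library 1. Its log2 fold change was -1.14 ± 0.37 for 6 °C against 22 °C and 0.76 ± 0.37 for 29 °C against 6 °C (adjusted p = 0.281 and 0.280), and it passed in neither fit. For 6 °C against 22 °C it was -0.72 without library 7, and -0.43 without library 1 with the split term. In the 8 libraries without H2-Ea-ps counts it was -0.18 (adjusted p = 0.728, edgeR), which leaves out libraries 7 and 8.

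The 22 °C group shows this spread for more members. In 13 members both of libraries 5 and 6 were above both of libraries 7 and 8, in 5 they were below both, and in 11 the pairs overlapped. The share of all genes that separated these pairs was not computed, so a trait particular to the members is not shown. Sc5d averaged 775 CPM in libraries 5 and 6 and 333 CPM in libraries 7 and 8, and Insig1 averaged 395 and 168 CPM. The lower 5 were Mvk, Tm7sf2, Srebf2, Insig2 and Soat2. Libraries 7 and 8 had summed hepatocyte markers of 102655 and 91398 CPM and neutrophil markers of 1594 and 1214 CPM, beside 201157 and 194887 CPM and 401 and 338.5 CPM in libraries 5 and 6. The part of these in the spread was not tested.

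The 5 genes of uptake control, transport and esterification had a median log2 fold change of 0.00 for 29 °C against 6 °C, 3 positive and 2 negative, and none passed with all 12 libraries. Mylip, the ubiquitin ligase that sends lipoprotein receptors to degradation, had 17.5, 16.1, 16.9 and 14.8 CPM at 6 °C, 16.8, 26.4, 16.2 and 15.0 CPM at 22 °C, and 16.7, 14.8, 15.5 and 18.4 CPM at 29 °C. Apart from library 6 all values lay within a narrow band. Npc2, the soluble carrier that lifts cholesterol out of lysosomes, had 58.7, 61.5, 55.1 and 65.9 CPM at 6 °C, 49.7, 54.6, 50.5 and 44.5 CPM at 22 °C, and 46.1, 77.8, 77.7 and 73.3 CPM at 29 °C. Library 9 was low and the other 3 libraries at 29 °C were above every other library. For Npc2 the log2 fold change for 29 °C against 22 °C was 0.46 ± 0.16 (adjusted p = 0.227, edgeR), and 0.55 in the 8 libraries without H2-Ea-ps counts (adjusted p = 0.0176). Its partner Npc1, in the lysosomal membrane, averaged 191 ± 43.3 CPM at 6 °C, 164 ± 18.9 CPM at 22 °C and 164 ± 25.3 CPM at 29 °C.

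Stard4, a cytosolic sterol carrier, had 210.0, 120.4, 157 and 129 CPM at 6 °C, 112, 109, 96.9 and 115 CPM at 22 °C, and 86.5, 167, 134 and 140.2 CPM at 29 °C. All 6 °C libraries were above all 22 °C libraries (log2 fold change 0.51 ± 0.21, adjusted p = 0.358, edgeR). Soat2, which esterifies cholesterol, had its highest mean at 29 °C, at 51.8 ± 11.4 CPM, with 34.5 ± 1.31 CPM at 6 °C and 40.0 ± 16.0 CPM at 22 °C (SD, n = 4 each). Its log2 fold change for 29 °C against 6 °C was 0.59 ± 0.24 (adjusted p = 0.201), and 0.73 in the 8 libraries without H2-Ea-ps counts (adjusted p = 0.00688).

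Levels of different genes were compared per kilobase of merged exons. These join the exons of all annotated transcripts of a gene, and which transcripts the liver used was not tested. The highest were Hmgcs1 at 124 ± 52.7 CPM per kb, Insig1 at 114 ± 55.3 and Sc5d at 109.5 ± 47.1 (SD over 12 libraries), which differ by less than their spread. Ebp followed at 68.1 ± 18.6, Insig2 at 54.5 ± 28.9 and Cyp51 at 54.3 ± 19.3 CPM per kb. Idi1 was lowest at 1.02 ± 0.366 CPM per kb, below Ggps1 at 2.20 ± 0.657 and Fdps at 4.43 ± 1.82. The median over the 29 genes was 20.2 CPM per kb.

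**Figure D4:**
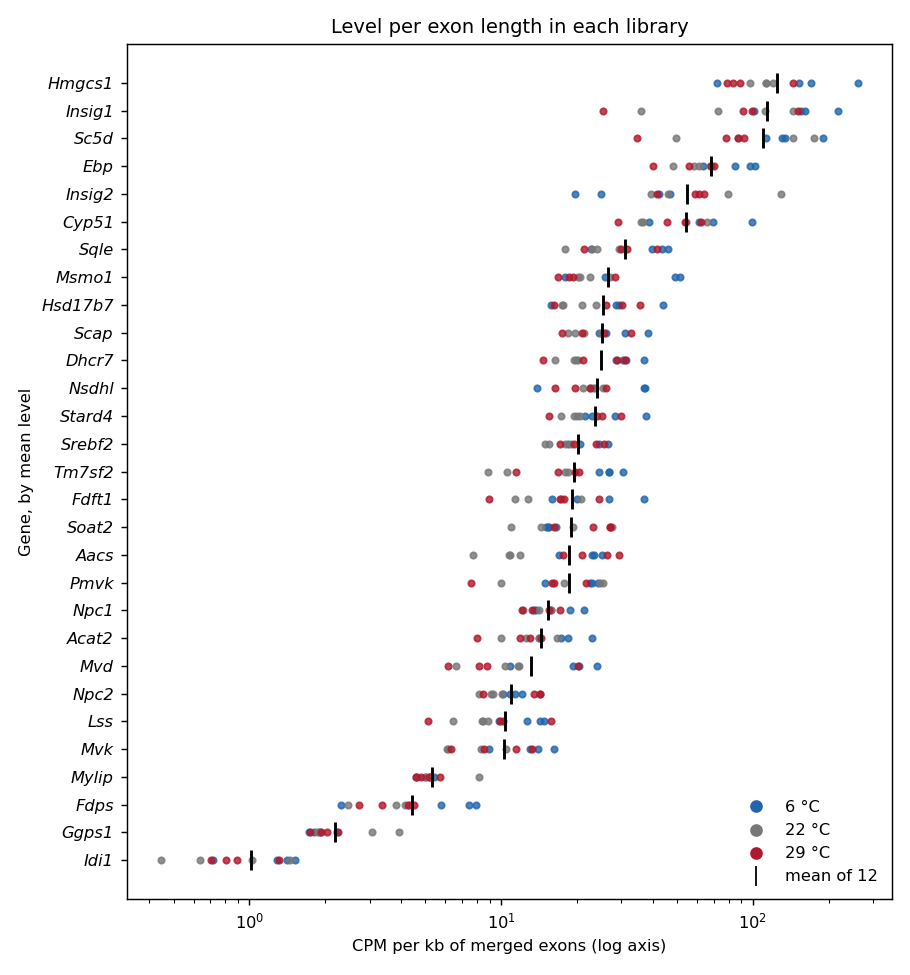
Level per kb of merged exons (horizontal log axis, CPM per kb) of the 29 genes, ordered by mean; each point is a library coloured by housing temperature and the black tick is the mean of 12 libraries. Hmgcs1, Insig1 and Sc5d lie at the top with overlapping points, and Ggps1 and Idi1 lie at the bottom, at 2.20 and 1.02 CPM per kb.

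How far the members varied together was asked against Hmgcs1 in the 8 libraries without H2-Ea-ps counts, so that libraries with and without such counts were not pooled. On log2(CPM + 1), 24 of 28 Pearson correlations were positive and 7 passed an exact permutation test, two-sided, after adjustment over the 28. Such correlations are not given for all genes tested, so a trait particular to the members is not shown. The permutation exchanged libraries across the temperatures, and the part of temperature in these correlations was not tested. Msmo1 had r = 0.97 (exact p = 0.000372, adjusted p = 0.00347) and rho = 0.93 (exact p = 0.00223, adjusted p = 0.0208). Cyp51 had r = 0.97 (exact p = 0.000124, adjusted p = 0.00208) and rho = 0.98 (exact p = 0.000397, adjusted p = 0.0111). Fdft1 had r = 0.96 (exact p = 0.000149, adjusted p = 0.00208) and rho = 0.93 (exact p = 0.00223, adjusted p = 0.0208), and Nsdhl r = 0.91 (exact p = 0.00184, adjusted p = 0.0128) and rho = 0.90 (exact p = 0.00456, adjusted p = 0.0319). Acat2, Sqle and Idi1 passed by r alone, at 0.86, 0.82 and 0.81 (adjusted exact p = 0.0400, 0.0477 and 0.0477), with rho of 0.76, 0.79 and 0.74 (adjusted exact p = 0.147, 0.130 and 0.160).

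Hmgcs1 was farthest from its median in libraries 3 and 4, both at 6 °C. Without them r was 0.93 for Msmo1, 0.90 for Cyp51, 0.89 for Fdft1 and 0.75 for Nsdhl, and 0.77, 0.59 and 0.78 for Acat2, Sqle and Idi1. In all 8 libraries, Tm7sf2 and Ebp, 2 enzymes of the same stretch, had r of 0.22 each (adjusted exact p = 0.735 for both). Aacs had r = 0.13 (adjusted exact p = 0.815). Among the controls, r in the 8 libraries was 0.36 for Srebf2, 0.52 for Insig1 and -0.58 for Insig2 (adjusted exact p = 0.532, 0.302 and 0.268). Without libraries 3 and 4, r was 0.26 for Tm7sf2, 0.73 for Ebp, -0.07 for Aacs, 0.31 for Srebf2, 0.89 for Insig1 and 0.06 for Insig2. The lower r of Ebp and Insig1 and the negative r of Insig2 therefore rested on those 2 libraries. Library 4 was the lowest 6 °C library for 15 of 19 synthesis enzymes, but the highest of that group for Ebp. How often it was the lowest over all genes was not counted.

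**Figure D5:**
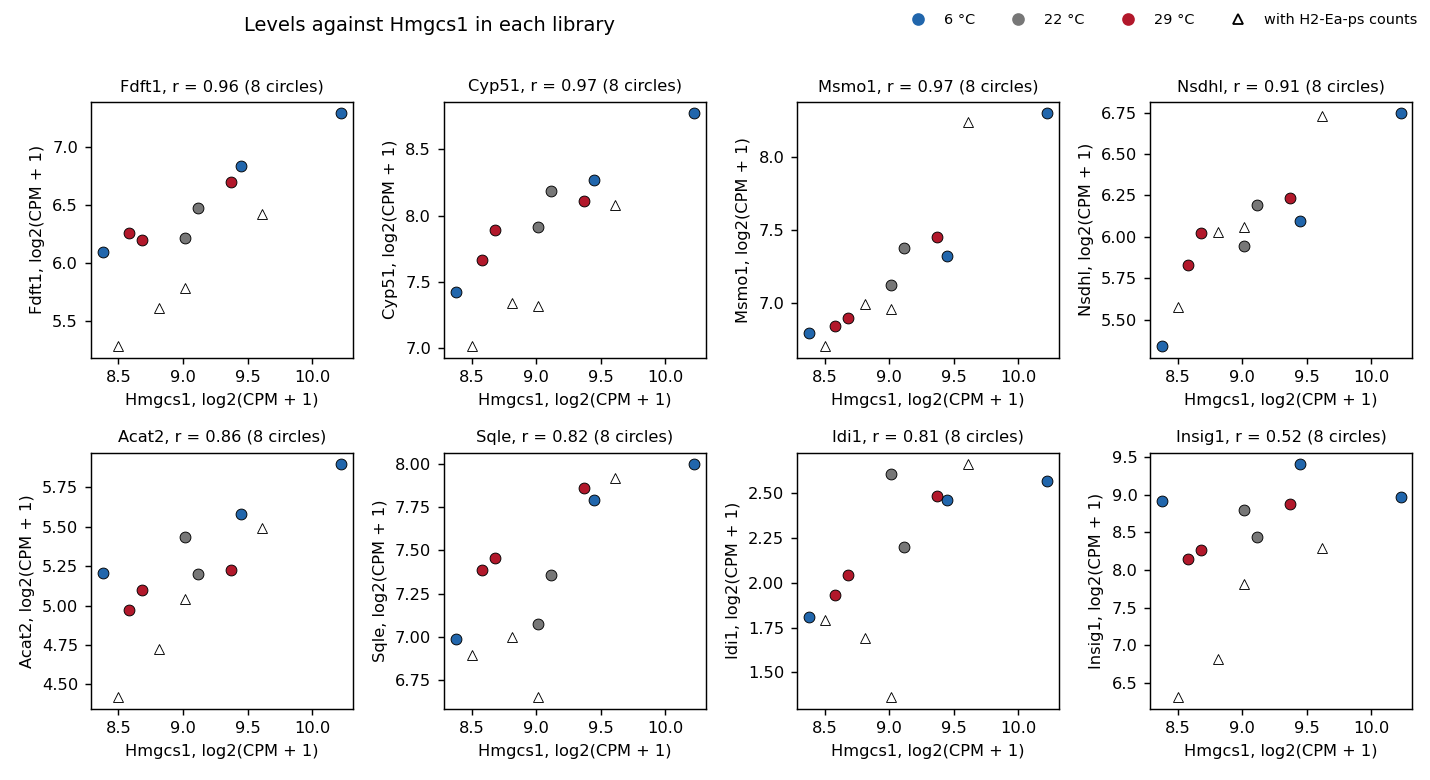
Level of 8 genes (vertical axis, log2(CPM + 1)) against Hmgcs1 (horizontal axis, log2(CPM + 1)) in each library; filled circles are the 8 libraries without H2-Ea-ps counts, on which r was computed, coloured by housing temperature, and open triangles are the 4 libraries with such counts. Msmo1, Cyp51 and Fdft1 follow Hmgcs1 closely among the circles, with r of 0.96 to 0.97, and Insig1 less so at 0.52. Without libraries 3 and 4, r was 0.93 for Msmo1, 0.90 for Cyp51, 0.89 for Fdft1 and 0.89 for Insig1.

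Single libraries were the highest or lowest for many members at once. Such counts were not made over all genes tested, so a trait particular to the members is not shown. Library 9 was the lowest 29 °C library for 26 of 29 members and 18 of 19 synthesis enzymes, and the lowest of all 12 libraries for 14 members. Library 10 was the highest 29 °C library for 22 members, and library 3 the highest of all 12 for 11. Summed over the 19 enzymes, the level was 2312 to 4513 CPM at 6 °C, 1759 to 2716 CPM at 22 °C and 1415 to 2928 CPM at 29 °C. Library 9 also had the lowest hepatocyte sum, 83338 CPM, and the highest neutrophil sum, 2494 CPM, and their part in its low values was not tested.

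Related genes of the pathway were followed as lists beside the members, for 29 °C against 6 °C, where 2.53% of all genes passed with all 12 libraries and 12.6% with the split term. Of 12 genes of SREBP processing and sterol-regulated degradation none passed in edgeR's fit with or without the split term, with a median log2 fold change of -0.15 against 0.00 over all genes. Of 11 listed genes of sterol efflux and LXR targets 10 were tested, of which 1 passed with all 12 libraries (2.53% of all genes did) and 2 with the split term (12.6% of all genes). The 1 was Abcg5, which with a partner forms the transporter that sends sterols into bile, at 36.1, 42.7, 54.6 and 68.7 CPM at 29 °C, against 112, 79.4, 82.5 and 109 CPM at 6 °C. No 29 °C library reached a 6 °C library, and Abcg5 fell by 0.92 ± 0.20 on the log2 scale (adjusted p = 0.0312, edgeR). Pltp, the phospholipid transfer protein of the same list, had a log2 fold change of 1.34 ± 0.46 (adjusted p = 0.138) and passed as higher at 29 °C with the split term at 1.23 ± 0.24 (adjusted p = 0.00547). It had 47.5, 129, 159 and 131 CPM at 29 °C, against 32.5, 66.2, 57.0 and 28.6 CPM at 6 °C.

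Of 15 genes of lysosomal release, transport and uptake, 1 passed with all 12 libraries (2.53% of all genes did) and 4 with the split term (12.6% of all genes). The 1 was Stard5, a sterol carrier of the same family as Stard4. It had 72.0, 60.7, 66.1 and 61.2 CPM at 29 °C, against 133, 86.9, 105 and 95.3 CPM at 6 °C, and fell by 0.69 ± 0.14 on the log2 scale (adjusted p = 0.0296, edgeR). Leaving out 1 library ended the call of Abcg5 for 6 of the 12 libraries (1, 3, 4, 9, 10 and 11), with an adjusted p of up to 0.112, and that of Stard5 for 5 (3, 4, 10, 11 and 12), with up to 0.102. Gramd1c and Osbpl9 of this list passed with the split term (log2 fold change -0.58 ± 0.15 and -0.48 ± 0.14, adjusted p = 0.0208 and 0.0331). Their calls were lost without library 1, 9, 10 or 11 (up to 0.0683) and without library 1, 3, 9, 10 or 11 (up to 0.124, edgeR).

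Of 7 genes listed as electron donors or as proteins that bind P450 enzymes, 7 had a negative log2 fold change for 29 °C against 6 °C. Their median was -0.47, and 0 passed with all 12 libraries. Pgrmc1, a haem protein that binds sterol P450 enzymes, and Cyb5b, a cytochrome of the outer mitochondrial membrane, passed with the split term at -0.58 ± 0.12 and -0.60 ± 0.13 (adjusted p = 0.00596 and 0.00893, edgeR). Of 17 genes of the non-sterol isoprenoid branches, 0 passed with all 12 libraries and 1 with the split term (12.6% of all genes did), namely Rabggta, a subunit of the Rab prenyl transferase, at -0.48 ± 0.14 (adjusted p = 0.0369). Its call was lost without library 1, 2, 3, 4, 9, 10, 11 or 12 (adjusted p up to 0.107, edgeR). Of 16 lipogenic genes of SREBP1, 0 passed with all 12 libraries, and 3 passed as lower and 1 as higher with the split term (12.6% of all genes did, in both directions together). The 3 were Fads1 and Fads2, the desaturases of polyunsaturated fatty acids, and Acss2, the acetyl-CoA synthetase, at -0.76 ± 0.15, -0.60 ± 0.18 and -0.76 ± 0.22 (adjusted p = 0.00433, 0.0427 and 0.0324). The call of Fads1 held without any 1 library (adjusted p up to 0.0167, edgeR). Those of Fads2 and Acss2 were lost without library 1, 3, 4, 5, 10, 11 or 12 (up to 0.118) and without library 1, 2, 3, 9, 10 or 11 (up to 0.109).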

How the data were processed

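RNA was sequenced in 12 liver libraries, 4 at each of 3 housing temperatures. The deposited table holds raw read counts per gene, whole numbers that the authors made with tools listed in the submitters' processing notes: the build GRCm38, with STAR 2.6.1a, bcl2fastq and DESeq2 1.44.0 named without roles. Which program counted reads, and whether by strand, is not given in the sources used here. The members and lists were chosen with earlier results of these data known.

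Counts were tested with edgeR 4.0.16 in R 4.3.3 (quasi-likelihood test, TMM factors, low-count filter by group, 12 libraries in 1 fit, two-sided), with Benjamini-Hochberg adjustment over 15006 genes and a threshold of 0.05. The 5 tests were the 3 pairs, a slope over temperature and an F test of the 3 groups. Every adjusted p in the text is from edgeR unless another tool is named. limma 3.58.1 (voom) and DESeq2 1.42.0 were alternatives, as were other scalings, filters, leaving out libraries, and a term for the libraries where H2-Ea-ps reached 1 CPM, which were set apart from the data and are not groups of the study. The fit was tested on simulated data. Correlations used log2(CPM + 1) and exact permutation in Python 3.11.15. Members were matched to GENCODE vM21 by identifier, 28 with the version and 1, Fdft1, without it, and promoter sequences are from RefSeq. Values in every library are given for Hmgcs1, Sqle, Idi1, Srebf2, Insig1, Insig2, Stard4, Mylip, Npc2 and Aacs and for the 6 members with the lowest p of the F test (Aacs, Tm7sf2, Dhcr7, Ebp, Acat2 and Insig2); Sc5d was added after its values were seen. Of the related lists, up to 3 genes with the lowest p among those called were named. The floor of 3 counts covers counting error only. Ranges are the lowest and highest values over libraries or over refits.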

Additional observations from a re-analysis of the deposited data

Results flagged for a closer look

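In 4 of 87 groups of 4 libraries, 1 library lay apart from the other 3 by Dixon's criterion, which chance gives in about 1 of 20 groups. Hmgcs1 was high in library 10 among the 29 °C libraries, at 661 CPM. Npc2 was low in library 9 of the same group, at 46.1 CPM. Among the 22 °C libraries, Dhcr7 was low in library 7, at 95.0 CPM, and Mylip was high in library 6, at 26.4 CPM.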

How the results depend on the processing

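Of 2450 recomputed log2 fold changes behind 70 reported ones, 2438 kept their direction. Members called for 29 °C against 6 °C, 29 °C against 22 °C, 6 °C against 22 °C, the slope and the F test were 0, 0, 0, 0 and 1 with all 12 libraries. With the split term they were 4, 2, 1, 3 and 6. In the 8 libraries without H2-Ea-ps counts they were 4, 8 and 7 for the 3 pairs and 10 for the F test. DESeq2 called 1 for 29 °C against 22 °C, 3 for 6 °C against 22 °C and 3 in the F test; limma voom called 1 for 29 °C against 22 °C, 1 for the slope and 2 in the F test. Without a low-count filter 1 was called for 29 °C against 22 °C and 1 for 6 °C against 22 °C, and without the libraries low in Gm26917 the F test called 0. Leaving out 1 library gave 0 to 0 for 29 °C against 6 °C, 0 to 2 for 29 °C against 22 °C, 0 to 1 for 6 °C against 22 °C, 0 to 0 for the slope and 0 to 2 for the F test. With the split term these were 2 to 10, 0 to 3, 0 to 3, 0 to 8 and 2 to 11, and the highest for 29 °C against 6 °C, the slope and the F test came without library 4 (5 for 29 °C against 6 °C without library 10, 5 for the slope without library 6 and 5 for the F test without library 7). Shares of all genes are not given beside the counts of DESeq2, limma voom, the other filters and the fits that left out libraries. The 7 correlations with Hmgcs1 that passed became 3 to 7, with 3 without library 3 or 11. The median level of 20.2 CPM per kb became 27.3 with library sizes that left out mitochondrial and the 10 most abundant genes. The sign turned for Srebf2, 29 °C against 6 °C, without library 2 or 9 (0.021 and 0.037; with the split term 0.011 and 0.039; lowest -0.16) and for Aacs, 29 °C against 6 °C, without library 4 or 11 (-0.016 and -0.032; with the split term -0.032 and -0.031; highest 0.21, and 0.24 with the split term). It turned for Sc5d, 29 °C against 22 °C, without the libraries low in Gm26917 (0.091), and for Idi1 and Sc5d, 6 °C against 22 °C, in the 8 libraries (-0.14 and -0.082). Sc5d, 6 °C against 22 °C, was -0.093 without library 1 with the split term (highest 0.31). The cause was not tested. The members' median stayed between -0.57 and -0.19 for 29 °C against 6 °C and between 0.28 and 0.67 for 6 °C against 22 °C, but was -0.15 to 0.30 for 29 °C against 22 °C. No paired analysis was possible because the groups share no replicate numbers. Depth limits Idi1 most, at 21 to 81 counts.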
